A study of Danio rerio with 80 samples.

Results

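The mitochondrial genome transcripts described here are the 13 rows of the expression table that lie on chromosome MT of the zebrafish genome build GRCz11, out of 23473 rows in all. They were taken by chromosome alone, and no measured value entered the choice. All 13 are protein-coding genes, and all 13 passed the filter on low values that left 10646 rows for testing. No rRNA or tRNA gene is among the rows on chromosome MT, so mitochondrial reads below are those of these 13 genes only.

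Whole brains of 80 adult wild-type zebrafish of the AB strain were sequenced one fish at a time. As larvae, between 6 and 96 hours post fertilization, the fish had been kept in water with the solvent alone (Control, 0.1% DMSO), in a mixture of persistent organic pollutants at 10 or 70 times the level found in human blood (POP10 and POP70), or in perfluorooctane sulfonate (PFOS), a fluorinated surfactant, at the level it has in these mixtures (PFOS10, 0.3 mg/L, and PFOS70, 2.06 mg/L). They then grew up in clean water. Each condition had 4 exposure replicates of 2 females and 2 males, so that a condition has 16 fish and a sex within it 8. The replicates carry the numbers 3 to 6, and the labels tie each number to an age in every condition: 240 days post fertilization for number 3, 233 for number 4, 226 for number 5 and 219 for number 6. Fish of an exposure replicate shared their exposure and are not independent exposures.

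The mitochondrial genome is a small circle that encodes core subunits of the respiratory chain and of ATP synthase, and the nucleus encodes their remaining subunits. In vertebrates each strand is copied as a long transcript, from which the messenger RNAs are cut out, mostly at the tRNAs that lie between them, and then polyadenylated. Mitochondrial messenger RNAs are abundant in brain, where firing and transmission use much ATP. In human cells ND6, the messenger RNA on the light strand, is described as lacking a poly(A) tail.

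RNA was selected with poly-T beads, and the deposited values are log2 normalized reads per Mread (log2 RPM below, with no correction for gene length). The reads recovered from them came to 9.01 to 20.3 Mreads per library (1 Mread is 1000000 reads), with a median of 12.1 Mreads, and each mitochondrial gene had between 3399 and 804643 reads in a library, so counting error is small beside the spread between fish. Markers went with the brain label: 11 of 11 neuron markers were tested and took a median of 1.097% of the reads. Of other tissues, 0 of 5 skeletal muscle and 2 of 4 eye markers reached 10 RPM on average. So did 1 of 4 markers of liver and blood plasma and 1 of 4 of pituitary. The eye markers took a median of 0.00166% of the reads and at most 0.0297% in a fish. Sets of libraries stood apart. In number 5 the PFOS70 fish had 7.62 ± 0.27 log2 RPM of the clock gene nr1d1 (SD, n = 4) and the other fish 3.36 ± 0.46 (SD, n = 16). Over all fish of a number, the mean of nr1d1 was 7.16 in number 3 and 5.08 in number 4. It was 4.21 in number 5 and 7.22 in number 6. The oldest fish (number 3) and the youngest (number 6) thus had like means of this clock gene. In number 5 the PFOS70 fish and the others, all of the same age, had unlike levels, so its mean of 4.21 describes neither set. What went with these differences was not tested. A POP10 female of number 3, fish 3_1, had an unusual mitochondrial makeup that is described below. Its part, and that of the PFOS70 fish of number 5, is given as the counts without them.

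Complex I, the NADH dehydrogenase that starts the chain, has 7 of the 13 genes. On chromosome MT they are mt-nd1 (bases 3803 to 4777), mt-nd2 (4993 to 6039), mt-nd3 (10590 to 10940), mt-nd4l (11009 to 11305), mt-nd4 (11299 to 12679), mt-nd5 (12897 to 14717) and mt-nd6 (14714 to 15232). Complex III, which passes electrons from ubiquinol to cytochrome c, has mt-cyb (15308 to 16448). Complex IV, the cytochrome c oxidase that reduces oxygen, has mt-co1 (6425 to 7975), mt-co2 (8130 to 8820) and mt-co3 (9735 to 10520). Complex V, the ATP synthase, has mt-atp8 (8894 to 9058) and mt-atp6 (9052 to 9735), which belong to its proton-conducting part. Of the 13 genes, mt-nd6 lies on the minus strand and the other 12 on the plus strand.

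Genes of the oxidase stood highest per length. In RPM per kilobase, the median over 80 fish was 33366 for mt-co2, 28170 for mt-co1 and 24086 for mt-co3, followed by 21442 for mt-atp6. A gap came next, to 11040 for mt-cyb and 9556 for mt-nd6. At the low end stood mt-nd2 at 5382, mt-nd4l at 2237 and mt-nd5 at 2189. The order was not the same in all fish. The steps from mt-co1 to mt-co3, from mt-atp6 to mt-cyb (median ratio 2.08), from mt-nd1 to mt-nd4 and from mt-nd2 to mt-nd4l (median ratio 2.52) held in 80 of 80 fish. Other neighbours traded places: mt-atp8 was above mt-nd3 in 42 of 80 fish, mt-nd3 above mt-nd1 in 47 and mt-nd4l above mt-nd5 in 46, so these neighbours do not differ beyond their spread.

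**Figure D1:**
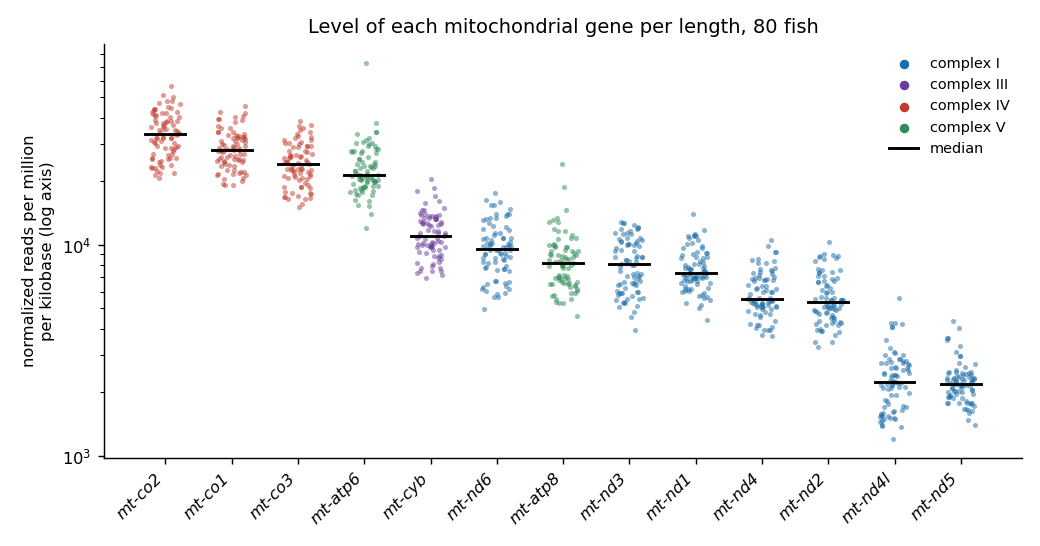
Level of each mitochondrial gene in RPM per kilobase on a log axis, 1 point per fish (80 fish), coloured by complex, with the median as a bar. The 3 oxidase genes and mt-atp6 stand above mt-cyb in every fish, mt-nd4l and mt-nd5 are lowest, and the single high mt-atp6 point is POP10 female 3_1.

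Of the 4 pairs of neighbouring genes that overlap, 3 had unlike reads per length in all fish. The coding regions of mt-atp8 and mt-atp6 share 7 bases, and mt-atp6 was higher per length by a median of 2.85 times. The regions of mt-nd4l and mt-nd4 share 7 bases as well, and mt-nd4 was higher by a median of 2.66 times. At 165 and 297 bases, mt-atp8 and mt-nd4l are short beside pairs of 150 bp reads. What their length does to their counts was not tested, so these ratios need not be ratios of RNA levels. On opposite strands, mt-nd5 and mt-nd6 share 4 bases, and mt-nd6 was higher by a median of 4.37 times. The fourth pair, mt-atp6 and mt-co3, shares 1 base, and mt-co3 was higher in 61 of 80 fish, by a median of 1.08 times (lowest ratio 0.469, highest 1.398). Whether reads were counted by strand is not given in the sources used here, so reads of antisense RNA across mt-nd6 or mt-nd5 cannot be told apart from reads of the genes. Reads from nuclear copies of mitochondrial DNA were not tested.

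Of all mitochondrial reads, complex IV genes took a median of 57.5% (lowest 45.7%, highest 62.0%). Complex I genes took 22.5% (20.0% to 26.9%), complex V 11.2% (9.21% to 21.4%) and complex III 8.41% (7.49% to 10.2%). The largest item was mt-co1, with a median of 29.7% of the mitochondrial reads, and the smallest mt-nd4l, with 0.454%.

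The 13 genes moved together from fish to fish. For Pearson's r, the means of group (condition and sex) and of number were first removed from the log2 RPM. Over the 78 pairs of genes and 80 fish, r then ran from 0.541 to 0.969 with a median of 0.818. Without that removal, the first principal component of the 13 genes held 79.8% of their variance. Against the mean of the other 12 genes, with the removal, r was highest for mt-nd4 at 0.962 and lowest for mt-nd6 at 0.781. The closest pair was mt-co2 and mt-co3, and mt-nd4l had r = 0.929 with mt-nd5 and 0.882 with mt-atp8. These values are descriptions, since all genes of a fish share its library.

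Together the 13 genes took 7.20% to 18.2% of the reads of a library, with a median of 10.5% and a mean of 11.2% ± 2.54 (SD, n = 80). In whole tissue, fewer cells of a type and less RNA per cell cannot be told apart, and so a share may differ through the mitochondrial or through the nuclear RNA. In Control fish the lowest share was 9.34%, the median 10.3% and the highest 16.7%. POP10 fish ran from 7.20% through a median of 10.9% to 18.2%, and POP70 fish from 7.78% through 10.97% to 16.4%. PFOS10 fish ran from 7.81% through 10.1% to 15.8%, and PFOS70 fish from 7.59% through 10.5% to 15.5%. The 5 conditions overlapped over nearly their whole range, and every exposed condition had fish below the lowest Control fish.

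**Figure D2:**
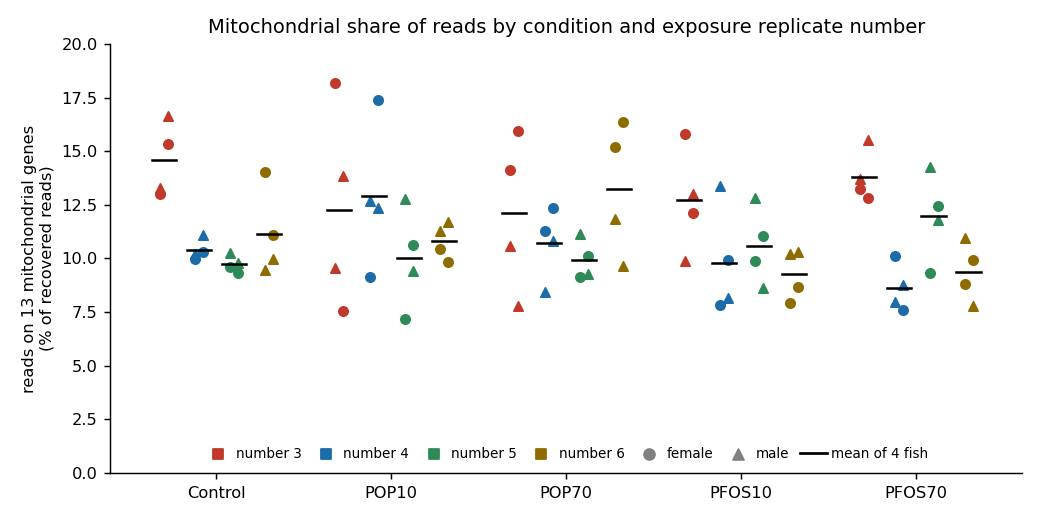
Reads on the 13 mitochondrial genes as a percentage of the recovered reads of each fish, by condition (groups on the x axis) and exposure replicate number (colour), with females as circles, males as triangles and the mean of 4 fish as a bar. The conditions overlap between 7.20% and 18.2%, and the mean of number 3 is the highest of the 4 numbers in Control, PFOS10 and PFOS70.

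Exposure as a larva went with no called change of any mitochondrial gene in the adult brain. In limma's test with Benjamini-Hochberg adjustment over 10646 rows (16 against 16 fish, adjusted p under 0.05 called), 0 of 13 genes were called in POP10, where 0.0188% of all rows were, and 0 of 13 in POP70, where 0% were. In PFOS10 0 of 13 were called beside 0.00939% of all rows, and in PFOS70 0 of 13 beside 0%. With no adjustment, too, 0 of 13 genes had p under 0.05 in each of the 4 exposures. The median log2 difference of the 13 genes was 0.01 in POP10 and 0.01 in POP70, beside 0.01 over all rows in each. It was -0.09 in PFOS10 beside 0.04 over all rows, and -0.07 in PFOS70 beside 0.02. The comparisons share the Control fish, and with rows called this rarely in any gene, the absence of calls is near the background.

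The 95% intervals give the precision of limma's fit, which takes each fish as a sample and has no term for the number. For mt-co1, the lowest, median and highest log2 RPM were 15.18, 15.42 and 15.93 in Control fish, 14.86, 15.42 and 16.11 in POP10 and 14.88, 15.43 and 16.01 in POP70. PFOS10 gave 14.97, 15.33 and 15.95, and PFOS70 14.92, 15.44 and 15.91. The medians lay close together and the ranges overlapped. Over the 13 genes, the 95% intervals of the differences reached at most from -0.39 to 0.39 in POP10 and from -0.33 to 0.43 in POP70. They reached from -0.54 to 0.38 in PFOS10 and from -0.54 to 0.34 in PFOS70.

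The widest departures were those of mt-nd6, the light-strand subunit of complex I, in the PFOS groups. Control fish had 11.98, 12.26 and 13.16 log2 RPM (lowest, median, highest), PFOS10 fish 11.33, 12.12 and 12.83, and PFOS70 fish 11.52, 12.12 and 12.83. The PFOS medians were below that of Control and the ranges overlapped widely. The log2 difference was -0.26 ± 0.14 (SE, 95% interval -0.54 to 0.02, limma adjusted p = 0.435) in PFOS10 and -0.26 ± 0.14 (-0.54 to 0.01, adjusted p = 0.760) in PFOS70. The POP groups had mt-nd6 medians of 12.37 and 12.33, above that of Control, with differences of -0.02 and -0.01. The next in size was mt-co2 in PFOS10, at -0.15 with an adjusted p of 0.607.

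**Figure D3:**
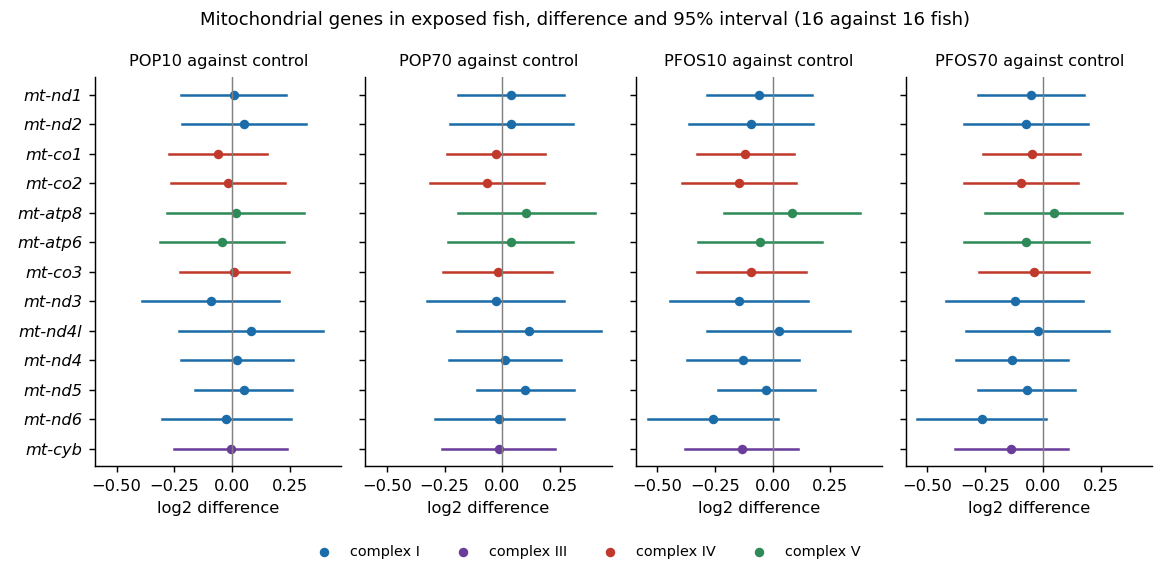
Log2 difference of each mitochondrial gene from Control with its 95% interval (limma, 16 against 16 fish) in POP10, POP70, PFOS10 and PFOS70, in genome order and coloured by complex. All 52 intervals include 0, and mt-nd6 in PFOS10 and PFOS70 lies farthest from it.

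With exposure replicates, not fish, as the unit, means of 4 fish were compared between 4 exposed and 4 Control replicates by a two-sided exact permutation test. Over 52 tests (13 genes in 4 exposures) the lowest p was 0.314, where the design could reach 0.0286, and the lowest adjusted p was 1. Pairing replicates by number in an exact test gave a lowest p of 0.125, which is the smallest that 4 pairs allow and cannot reach 0.05. It was that of mt-nd6 in PFOS10, whose mean was below Control in 4 of 4 numbers.

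Mixture against PFOS and high against low level gave no call either. In POP10 against PFOS10 and in POP70 against PFOS70, 0 of 13 genes were called beside 0% of all rows. In POP70 against POP10 0 of 13 were called beside 0%, and in PFOS70 against PFOS10 0 of 13 beside 0.00939%. An F test over the 5 conditions called 0 of 13 beside 0.0658% of all rows. The POP70 fish had a higher mean than the PFOS70 fish in 13 of 13 genes, which move together. The median difference was 0.11 beside -0.02 over all rows. Without the fish of number 3 these counts changed. Then mt-nd6 was called in POP70 against PFOS70 (log2 difference 0.47 ± 0.12 SE, limma adjusted p = 0.0294, against 0.25 and 0.965 with all fish). It was also called in the F test (adjusted p = 0.0461). Without number 3, 8.84% and 5.23% of all rows were called in these comparisons, so the call of mt-nd6 alone among the 13 genes is near the background.

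In POP70 the estimates lay on opposite sides of 0 in females and males, without a call. In POP70 females the share of mitochondrial reads ran from 9.13% through a median of 13.2% to 16.4%, and in POP70 males from 7.78% through 10.1% to 11.8%. Control females had a median of 10.7% and Control males of 10.2%. The groups overlapped, and the median of the POP70 females lay above the highest POP70 male. In females, 13 of 13 genes had a higher mean in POP70 than in Control, with a median log2 difference of 0.20 (all rows -0.04). In males 0 of 13 did, with a median of -0.17 (all rows 0.04). The genes of a fish share its library and move together, so these counts are not separate results. In females the 3 highest were mt-nd4l at 0.41 (95% interval -0.03 to 0.85), mt-atp8 at 0.32 (-0.09 to 0.74) and mt-nd5, the large membrane subunit at the end of complex I, at 0.31 (0.01 to 0.61, with 0.9996 as the adjusted p of limma). The test of the difference between the sexes called 0 of 13 genes beside 0% of all rows. Its estimate was highest for mt-nd4l at 0.59 (95% interval -0.03 to 1.21, limma adjusted p = 0.943), with a median of 0.36 over the 13 genes and -0.07 over all rows.

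A component of the nuclear genes had unlike means in these groups as well, a difference that was not tested. The first principal component of the 10633 tested rows outside the mitochondrial genome, called the composition component here and given in SD units, held 39.3% of their variance and was turned so that the GABA synthesis genes gad1b and gad2 rise with it. It was -0.67 ± 0.69 in POP70 females and 0.33 ± 0.67 in POP70 males (SD, n = 8). With this component as a covariate the median interaction of the 13 genes was 0.14. What the component stands for, and its part in the estimates, was not tested.

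No other exposure gave a call within a sex. POP10 called 0 of 13 in females beside 0.0282% of all rows and 0 of 13 in males beside 0%. POP70 called 0 of 13 in either sex, as did PFOS10 and PFOS70, beside 0% in each. The interactions of POP10, PFOS10 and PFOS70 with sex called 0 of 13 beside 0%.

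Between the sexes over all groups, 0 of 13 mitochondrial genes were called, beside 1.31% of all rows, and in Control fish alone 0 of 13 beside 0%. The share was 11.4% ± 2.89 in 40 females and 11.02% ± 2.15 in 40 males (SD). The 3 largest estimates over all groups, each higher in females, were those of mt-nd4l at 0.20 (95% interval 0.00 to 0.39, limma adjusted p = 0.424), mt-atp8 at 0.17 (adjusted p = 0.489) and mt-nd5 at 0.13 (adjusted p = 0.475).

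The exposure replicate number, and with it age, was where the mitochondrial genes differed. The share ran from 7.53% through a median of 13.3% to 18.2% in the 20 fish of number 3. It ran from 7.59% through 10.2% to 17.4% in number 4, from 7.20% through 10.0% to 14.3% in number 5 and from 7.78% through 10.2% to 16.4% in number 6. The ranges overlapped, with number 3, the oldest fish, shifted up. An F test over the 4 numbers, in a model that keeps the 10 groups of condition and sex, called 11 of 13 genes, beside 67.9% of all rows. The lowest adjusted p were those of mt-nd2 (0.000318), mt-nd4l (0.000686) and mt-nd6 (0.00103), and mt-co1 (0.0639) and mt-cyb (0.0596) were not called. A share of 11 of 13 is near the background, so the call of a difference is no property of the set. Its direction differed from that of most genes.

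In number 3 against number 4, 11 of 13 genes were higher, beside 6.71% of all rows, and 0 of 13 lower, beside 43.2%. The median difference was 0.34 for the 13 genes and -0.13 for all rows. For mt-nd2 the lowest, median and highest log2 RPM were 12.003, 12.92 and 13.40 in number 3 and 11.82, 12.36 and 13.19 in number 4, a difference of 0.47 ± 0.11 (SE, limma adjusted p = 0.000209). The ranges overlapped, with the median of number 3 well above that of number 4. The mean was higher in number 3 in 4 of 5 conditions, and in POP10 the difference was -0.03. The genes not called by limma were mt-co1 (0.21, adjusted p = 0.0505) and mt-co2 (0.22, adjusted p = 0.0703).

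In number 3 against number 5, 12 of 13 genes were higher, beside 3.53% of all rows, and 0 of 13 lower, beside 31%, with a median difference of 0.33 against -0.10 for all rows. The gene not called was mt-cyb (0.25, adjusted p = 0.0610). In number 3 against number 6, 7 of 13 were higher, beside 9.01%, and 0 of 13 lower, beside 28.4%. The 7 genes were mt-nd3 (0.51 ± 0.12 SE, limma adjusted p = 0.00036), mt-nd6 (0.47, 0.000485), mt-nd2 (0.38), mt-co2 (0.36), mt-atp6 (0.34), mt-nd4 (0.31) and mt-nd1 (0.25). There mt-nd4l, mt-nd5 and mt-atp8 differed by -0.04, -0.02 and 0.01.

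Numbers 4 and 5 did not separate: 0 of 13 genes were higher, beside 3.02% of all rows, and 0 of 13 lower, beside 2.7%. Against number 6, the youngest fish, the same 3 genes were lower in number 4 and in number 5. In number 4 against number 6, 3 of 13 were lower, beside 7.8% of all rows, and 0 of 13 higher, beside 23.6%. For mt-nd4l, a small complex I subunit, the lowest, median and highest log2 RPM were 8.47, 8.96 and 10.24 in number 4 and 8.79, 9.53 and 10.70 in number 6, a difference of -0.48 ± 0.12 (SE, limma adjusted p = 0.00218). The ranges overlapped while the medians lay apart. The difference was -0.34 for mt-atp8 (adjusted p = 0.0246) and -0.26 for mt-nd5 (adjusted p = 0.0163). In number 5 against number 6, 3 of 13 were lower, beside 8.64%, and 0 of 13 higher, beside 16.2%, with mt-nd4l at -0.37 (adjusted p = 0.0218), mt-atp8 at -0.35 (0.0306) and mt-nd5 at -0.27 (0.0173).

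These tests took each fish as a sample. With a common correlation of 0.0826 between fish of an exposure replicate, 10 of 13 genes were called in the F test (57.7% of all rows). The counts were 9 in number 3 against number 4, 7 against number 5 and 6 against number 6. In number 4 against number 6, mt-nd4l and mt-nd5 were called, and in number 5 against number 6 mt-nd5. Without the POP10 female 3_1 the counts were 10 in the F test and 10, 8 and 6 for number 3 against numbers 4, 5 and 6. Without the PFOS70 fish of number 5 they were 13, 12, 13 and 8. The shares of all rows are not given for these counts, apart from the F test with the correlation. A change of calls in these genes therefore cannot be told apart from one over all rows. A number stands for an age and for whatever else its fish shared, and these cannot be told apart.

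Beside the joint shift, the proportions of the 13 genes differed by number. Each gene was set against the mitochondrial mean, its log2 RPM minus the mean of the 13 genes in the same fish, a view added after the levels had been seen. These values show unequal change among the genes and not which gene changed, and 82.6% of all rows were called when set against this mean. That share carries the shift of the mean itself, which enters every row, so it is no like background for the 13 genes. The F test over the numbers called 8 of 13 genes, a share not above it. Its lowest adjusted p were those of mt-nd4l (1.40e-05), mt-nd5 (9.89e-05), mt-co2 (0.000147), mt-nd3 (0.000353) and mt-atp8 (0.000665).

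Number 6 had the makeup that stood apart. Against the mitochondrial mean, mt-nd4l was at -3.52, -3.10 and -2.70 (lowest, median, highest) in number 6 and at -3.80, -3.52 and -3.14 in number 4. The lowest fish of number 6 was level with the median of number 4. For mt-nd5 the values were -0.80, -0.58 and -0.40 in number 6 and -1.02, -0.77 and -0.50 in number 4. For mt-nd3, another complex I subunit, the order was the opposite, with -1.72, -1.49 and -1.12 in number 6 and -1.80, -1.18 and -0.80 in number 4. Relative to the mean of the 13 genes, mt-nd4l and mt-nd5 thus stood higher and mt-nd3 lower in the youngest fish.

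In number 4 against number 6, the relative log2 difference was -0.40 ± 0.07 for mt-nd4l (SE, limma adjusted p = 8.47e-05), -0.27 for mt-atp8 and -0.18 for mt-nd5, and 0.27 for mt-nd3 and 0.22 for mt-co2. In number 5 against number 6, it was -0.31 for mt-nd4l, -0.28 for mt-atp8, -0.21 for mt-nd5, 0.25 for mt-nd3 and 0.16 for mt-co2. All 5 genes passed in each of these comparisons and, with mt-nd2, mt-nd6 and mt-co1, in number 3 against number 6. Of all rows set against this mean, 8.98% were higher and 0.46% lower in number 4 than in number 6, and 2.81% and 0.564% in number 5. In number 3 against number 6, 4 of the 13 genes were higher and 4 lower, beside 0.395% and 49.9% of all rows. All these shares of rows carry the shift of the subtracted mean and are no like background for the 13 genes. The genes were chosen from the same fish, so the signs by condition are a description: mt-nd4l, mt-nd5 and mt-atp8 were relatively lower than in number 6 in 5 of 5 conditions for numbers 3, 4 and 5, and mt-nd3 was higher in 5 of 5. For mt-co2 it was higher in 4 of 5 for number 3 and in 5 of 5 for numbers 4 and 5. With the correlation within exposure replicates, 6 of 13 genes were called in the F test (62.4% of all rows), and 2 in number 4 and 0 in number 5 against number 6.

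**Figure D4:**
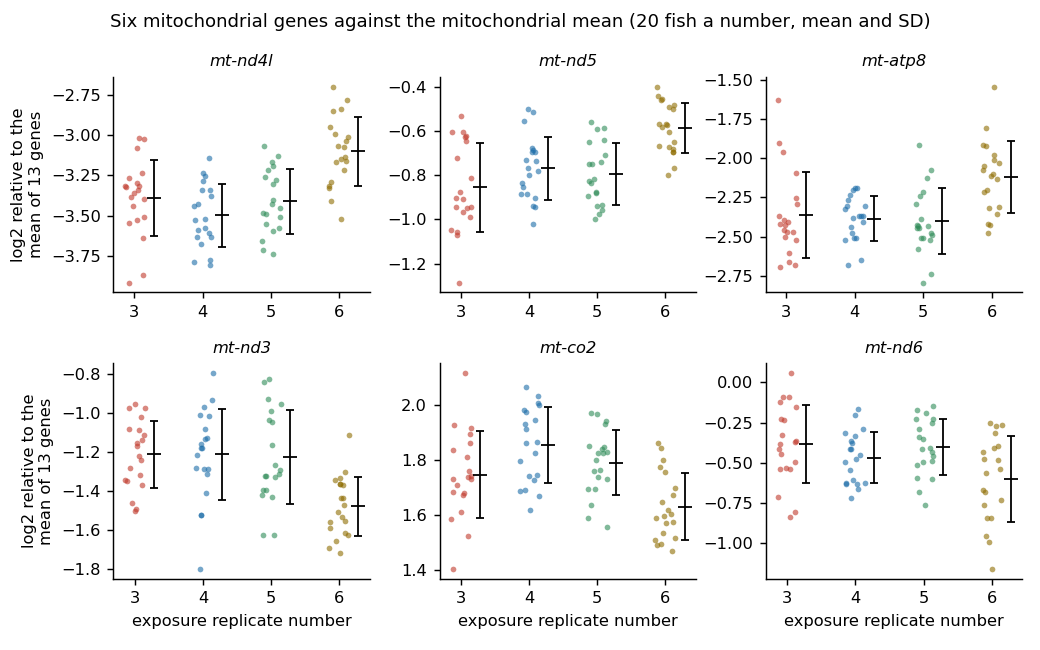
Log2 RPM of 6 mitochondrial genes minus the mean of the 13 genes in the same fish, by exposure replicate number, with 1 point per fish and the mean and SD of 20 fish beside them. In number 6 mt-nd4l, mt-nd5 and mt-atp8 sit higher and mt-nd3 and mt-co2 lower than in numbers 3, 4 and 5.

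The levels also went with the composition component. Each of 13 relations was negative over 80 fish. The component held 39.3% of the variance of the tested rows outside the mitochondrial genome. The share of all rows with such relations was not computed, so they are not shown to be particular to these genes. The closest was that of mt-nd6, with Pearson's r = -0.884 and Spearman's rho = -0.891, each p = 1e-05 in a permutation test with 100000 draws, which cannot give a smaller value (adjusted p = 1.3e-05). It was -0.878 without the 2 fish farthest from the median and ran from -0.949 to -0.741 within the 4 numbers. For mt-nd4 and mt-nd2, r was -0.760 and -0.756. It was weakest for mt-nd5 (-0.381), mt-nd4l (-0.373) and mt-atp8 (-0.318, adjusted permutation p = 0.00408), the 3 genes that stood relatively higher in number 6. The genes mt-nd3 (-0.696) and mt-co2 (-0.650), which stood relatively lower there, had closer relations. The permutations shuffled all 80 fish across numbers, conditions and exposure replicates, so their p-values take the fish as independent. Set against the mitochondrial mean, r was -0.622 for mt-nd6 and 0.587 for mt-nd5, so fish with a high component had relatively less mt-nd6 and relatively more mt-nd5.

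**Figure D5:**
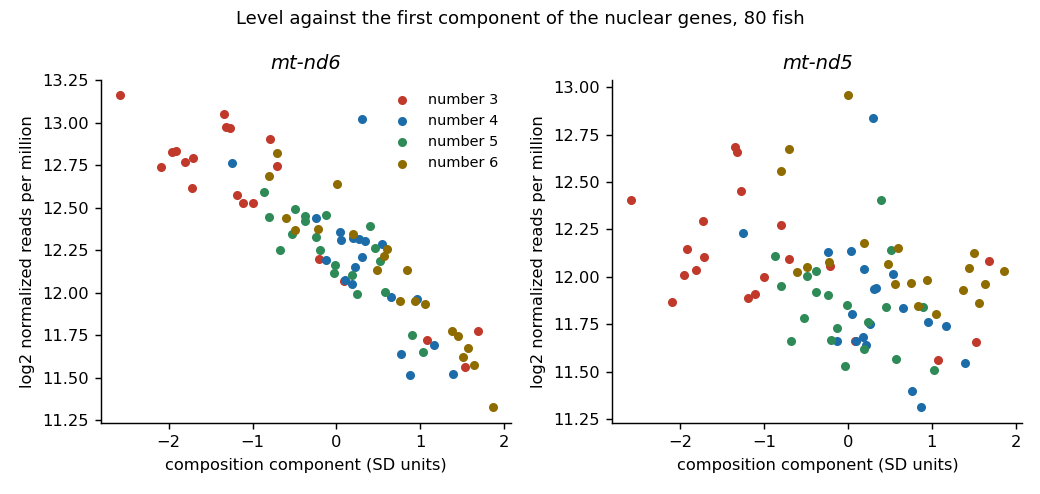
Log2 RPM of mt-nd6 (left) and mt-nd5 (right) against the composition component of the nuclear genes in SD units, 1 point per fish (80 fish), coloured by exposure replicate number. The points of mt-nd6 fall along a line (r = -0.884) and those of mt-nd5 scatter (r = -0.381).

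The composition component moved with the groups compared above. By number it was -0.92 ± 1.20 in number 3, 0.34 ± 0.57 in number 4, -0.02 ± 0.55 in number 5 and 0.60 ± 0.85 in number 6 (SD, n = 20). By condition it was -0.34 ± 0.85 in Control, 0.39 ± 1.08 in PFOS10 and 0.15 ± 1.30 in PFOS70 (SD, n = 16). The mixtures lay between these, with -0.03 ± 0.81 for POP10 and -0.17 ± 0.84 for POP70. With the component as a covariate, mt-nd6 differed from Control by 0.00 (95% interval -0.13 to 0.14) in PFOS10 and by -0.09 (-0.23 to 0.04) in PFOS70. With it, 4 of 13 genes were called in the F test over the numbers, mt-nd1, mt-nd4l, mt-nd5 and mt-atp8, beside 47.1% of all rows, and 0 of 13 in number 3 against numbers 4, 5 and 6. Under this covariate, the share of all rows called in those comparisons with number 3 is not given. In number 4 against number 6 the 3 genes mt-nd4l, mt-nd5 and mt-atp8 were called lower with it, beside 9.16% of all rows, and in number 5 against number 6 these and mt-nd1, beside 2.99%. The covariate comes from the same libraries as the levels, and what it stands for was not tested.

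As a description, the share of mitochondrial reads had r = -0.701 with the composition component, 0.589 with the share of cytosolic ribosomal protein genes and -0.04 with the recovered reads. The ribosomal protein share was 4.02% in number 3, 3.82% in number 4, 3.63% in number 5 and 3.26% in number 6.

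The POP10 female 3_1 had the highest mitochondrial share of the 80 fish, 18.2%. Its mt-atp6 stood at 15.61 log2 RPM, 3.40 times the median of the 80 fish and 1.93 times the next highest fish, and took 19.8% of its mitochondrial reads, against a median of 10.3%. Its mt-atp8 was also the highest of all, at 11.96 log2 RPM and 2.95 times the median of the 80 fish. Its mt-co1 share was the lowest of all, 22.1% against a median of 29.7%. The rise was thus uneven, with mt-co3, which lies directly after mt-atp6, at 1.42 times that median. The reason was not tested.

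Nuclear genes that serve the mitochondrial genome are given from lists that were chosen with earlier results known. For its transcription and replication, 12 of 17 listed genes were tested, and in number 3 against number 4 1 was higher and 5 lower, with a median of -0.08. All rows had 6.71% higher and 43.2% lower in this comparison, so these shares are near the background, and the genes named are values only. The replicative helicase twnk was lower by 0.44 on the log2 scale (limma adjusted p = 2.46e-06), the topoisomerase top1mt differed by -1.10 (8.85e-05) and the single-strand binding protein ssbp1 by -0.18 (0.00749). The rRNA methyltransferase tfb1m was higher, at 0.22 (0.00653). Of 24 tested genes of mitochondrial RNA processing and stability, 2 were higher and 9 lower, with a median of -0.07, which is again near the 6.71% and 43.2% of all rows. Among the lower were lrpprc (-0.35, adjusted p = 2.15e-05) and its partner slirp (-0.42, 0.000141), which keep mitochondrial messenger RNAs stable, and trmt10c (-0.49), part of the enzyme that cuts tRNAs out of the long transcripts.

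In number 3 against number 4, the nuclear subunits of the same complexes went the other way from the mitochondrial ones. Of complex I, 29 of 37 tested nuclear subunits were lower and 0 higher, with a median of -0.27, while all 7 of its mitochondrial subunits were higher. Of complex III 9 of 9 were lower (median -0.23), of complex IV 14 of 15 (-0.30) and of complex V 14 of 17 (-0.22). Complex II, which has no mitochondrial gene, had 4 of 5 lower. All rows had 43.2% lower and a median of -0.13. Examples were ndufa12 (-0.59 ± 0.10 SE, limma adjusted p = 5.11e-06) of complex I, uqcrq (-0.38) of complex III, cox4i1 (-0.33) of complex IV and atp5f1e (-0.42) of complex V. Of the mitochondrial ribosome, which translates the 13 messenger RNAs, 49 of 76 were lower and 1 higher (median -0.18). The medians of complex I, complex IV and the mitochondrial ribosome were below 0 under each scaling tried, with fewer calls under some: with the composition component as a covariate 15 of 37 genes of complex I and 1 of 15 of complex IV were lower, and quantile normalization left 8 of 76 ribosomal genes lower and 4 higher. The mitochondrial side was less stable. In the main test mt-co1 and mt-co2 of complex IV were not called. With the covariate no mitochondrial gene was called, and the estimates of mt-co3, mt-cyb, mt-nd3, mt-nd4 and mt-nd6 were below 0.

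In number 4 against number 6 the nuclear subunits were higher, with 25 of 37 of complex I (median 0.25), 11 of 15 of complex IV (0.28) and 55 of 76 of the mitochondrial ribosome (0.22), beside 23.6% of all rows. In number 3 against number 6, 9 of 37 of complex I were lower and 4 higher, and of complex IV 1 of 15 was higher, beside 28.4% lower and 9.01% higher of all rows. The contrast with the mitochondrial genes was thus not that of number 3 against number 4. By share of reads, nuclear complex I genes took a median of 0.408% in number 3 and 0.482% in number 4. They took 0.454% in number 5 and 0.410% in number 6. Of oligodendrocyte markers, 7 of 8 were lower in number 3 against number 4 (median -0.33), beside 43.2% of all rows. By share of reads they took a median of 0.569% in number 3 and 0.595% in number 4. Red cell markers took a median of 0.174% and 0.261%, and markers of GABA and glutamate neurons 0.246% and 0.244%. Their part in the result was not tested.

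The exposures called none of these nuclear genes. In POP10, POP70, PFOS10 and PFOS70, 0 members were called in each of the lists of transcription and replication, RNA processing, mitochondrial ribosome, complexes I to V, biogenesis, stress and cytosolic ribosomal proteins. In PFOS10 the lowest p among the transcription genes were those of tfb1m at -0.19 and top1mt at 0.68, each with a limma adjusted p of 0.432. The 77 cytosolic ribosomal proteins had a median difference of -0.19 in PFOS10 and -0.18 in PFOS70. Before adjustment 52 and 50 of them had p under 0.05 in limma's test, beside 1197 and 588 of all 10646 rows. The genes of a fish share its library, so these counts are not separate results.

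Those ribosomal proteins were also the genes most like the mitochondrial ones. After removal of group and number means, the genes with the highest Pearson's r with the mean of the 13 over 80 fish were rps25 (0.669), rpl32 (0.654), rpl24 (0.639), rps7 (0.635), rpl23 (0.631), rps3a (0.627), rps14 (0.624) and rpl22l1 (0.624). Of the 25 closest genes 19 were on the list of ribosomal proteins, whose 77 members had a median r of 0.532, beside -0.154 over the 10633 rows. The lowest were prdm2b (-0.759), ncor1 (-0.752), rb1cc1 (-0.739), slmapa (-0.738) and lcorl (-0.730). All these values share the libraries and their scaling.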

How the data were processed

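Single brains of 80 fish were sequenced as 150 bp pairs from 2 µg of total RNA each, with 20 Mreads planned, per the labels' protocols. R 3.5.0, DESeq2 (version not stated), STAR 2.5.4b and Trim Galore 0.4.5 were used with the build GRCz11, per the submitters' processing notes. How reads were counted, whether by strand, and how libraries were scaled is not given in the sources used here. The authors deposited log2 normalized expression, 1 value per row and fish, per the file headers. Below 5000 reads, 100% of these values, times a factor per library, came within 0.02 of whole read counts, and a count of 0 stands as 0.9 read, so reads and shares could be recovered.

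The main test was limma 3.58.1 (R 4.3.3, statmod 1.5.0) on the deposited log2 values, two-sided, with 10 group means and an intensity trend, over 10646 rows with a mean of at least 10 RPM, and Benjamini-Hochberg adjustment over all of them. The number entered as a term in the tests of number. The test was checked on simulated data. Alternatives were other filters and scalings, voom on recovered reads, the number as a block, correlation within exposure replicates, the composition component as a covariate, and left-out numbers or fish. The members and lists were chosen with earlier results of these data known. Text names all 13 mitochondrial genes, and of each nuclear list at most 4 that passed, or the 2 with the lowest p; the 8 most and 5 least alike genes are named too. Further examples were picked after their values were seen. Gene names came from the table, and the 13 identifiers matched the gene name reference.

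Each number has the same age in every condition, so numbers were taken to pair the samples. Deviations of same-numbered replicates correlated with a median of 0.325 over 40 pairs (lowest -0.145, highest 0.817), against -0.122 for other pairs. No fish was a copy of another: the chi-square per degree of freedom was at least 11.2 in 280 pairs within groups. P-values of limma's main test measure the spread between fish, and those of the exact tests the spread between exposure replicates.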

Additional observations from a re-analysis of the deposited data

Results flagged for a closer look

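In 7 of 140 checks within groups of 8 fish, a single fish stood far from the rest, each time in a mitochondrial gene. Chance gives about 1 in 20 such checks, so these flags are no more than chance gives. The checks share fish, and the genes move together. A PFOS70 female of number 4, fish 4_2, was low in mt-nd4l, at 8.47 log2 RPM with the next fish at 9.30, and in mt-nd5, at 11.31 with the next at 11.84. A Control male of number 3, fish 3_2, was high in mt-nd6, at 13.16 with the next at 12.37, and in mt-nd4, at 13.63 with the next at 13.19. A Control female, fish 3_2, was high in mt-cyb, at 14.38 with the next at 13.86. Another Control female, fish 6_1, was high in mt-atp8, at 11.11 with the next at 10.55. A POP10 male, fish 5_2, was low in mt-nd4l, at 8.76 with the next at 9.28.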

How the results depend on the processing

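With the number as a replicate block, 0 of 13 genes were called in every exposure, interaction and sex comparison, as without it. Of 1092 alternative values of a gene in the exposures and between the sexes, 982 kept their direction and 110 changed it, none of them called. Leaving out a number gave 0 to 1 called genes in POP70 against PFOS70 and 0 to 1 over the 5 conditions. Over the numbers that were left it gave 3 to 12. The lowest count was that without number 3, where the test no longer holds the comparisons with number 3. The shares stayed within the spread between fish.

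Counts by number moved under these settings. With the composition component as a covariate, 4 genes were called over the numbers and 0 in number 3 against number 4, 5 or 6. Quantile normalization called 4 in number 3 against number 5 and 4 against number 6. Correlation within exposure replicates called 7 in number 3 against number 5 and 1 in number 5 against number 6. Set against the mitochondrial mean, 3 were called in number 3 against number 4, 1 against number 5, and 5 in number 4 or 5 against number 6. With that mean and the correlation, 6 were called over the numbers, 2 in number 3 against number 4, and 0 in number 3 or number 6 against number 5. With that mean and the covariate, 5 were called over the numbers, 0 in number 3 against number 4, 5 or 6, and 5 in number 4 or 5 against number 6.

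Of 780 alternative values by number, 672 kept direction and call, 52 lost the call, 16 gained it, 26 uncalled values changed sign and 14 reversed. With the covariate, number 3 against number 4 gave -0.0060 for mt-co3, -0.055 for mt-cyb, -0.038 for mt-nd3, -0.020 for mt-nd4 and -0.072 for mt-nd6. Number 3 against number 5 gave -0.011 for mt-nd6. Number 3 against number 6 gave -0.059 for mt-atp6, -0.098 for mt-nd1, -0.056 for mt-nd2, -0.13 for mt-nd4 and -0.12 for mt-nd6. Quantile normalization gave -0.014 for mt-cyb against number 4, -0.014 for mt-co2 against number 5 and -0.031 for mt-atp6 against number 6; it gives the highest genes of a library the same values in all fish. The covariate differed between the numbers, and the cause of the other changes was not tested. The share over protein-coding genes alone was not run, since the table names no gene type. Depth did not limit the 13 genes: each had at least 3399 reads per library, and the spread between fish sets the intervals.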
